A study of Homo sapiens with 12 samples.

Results

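The mRNAs of 10 regulators of mTORC1, the growth-controlling kinase complex, were followed in HEK293 cells: MTOR, RPTOR, DEPTOR, RHEB, TSC1, TSC2, DDIT4, SESN1, SESN2 and SESN3. They were chosen by name, as the rows of the deposited table whose Ensembl gene IDs carry these symbols in GENCODE release 44, and all 10 were found among 26058 listed genes. HEK293 is a human embryonic kidney cell line. Derivatives of it were used as wild type (WT) and, after CRISPR editing, with PRKAA1 and PRKAA2, the genes of both catalytic α subunits of AMPK, disrupted (AMPK KO). Each line is a single line received from another laboratory, so a difference between the lines cannot be told apart from a difference between cell clones. All cells were starved of serum for 24 h. The WT DMSO and AMPK KO DMSO groups received only the solvent DMSO (0.025% v/v). DMSO+EGF groups received the solvent and, 20 min later, epidermal growth factor (EGF) for 30 min. Cordycepin+EGF groups received 25 µM cordycepin, which is 3′-deoxyadenosine, in that solvent 20 min before the same EGF treatment, so that the treatments lasted 50 min in all. The EGF dose was stated as 15, with units of nM in one place and µM in another. Every group had 2 libraries, numbered replicate 2 and replicate 3, which makes 12 libraries in 6 groups. Cordycepin without EGF was not analysed here, so each cordycepin effect is that of cordycepin on EGF-treated cells.

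mTORC1 is built from the kinase mTOR and the scaffold raptor (RPTOR), and DEPTOR binds the complex and restrains it. The small GTPase RHEB switches the complex on at the lysosome. The TSC1 and TSC2 proteins together form a GTPase-activating complex that holds RHEB in its inactive state, and growth factors acting through AKT relieve this brake. AMPK, the kinase that responds to low cellular energy, phosphorylates TSC2 and raptor and so lowers mTORC1 activity. DDIT4 (also called REDD1) and the sestrins are stress-induced inhibitors of the pathway. SESN1 and SESN2 sense leucine through the GATOR complexes, and sestrins also bind AMPK. RNA-seq reads the mRNAs of these genes and not the activity of the proteins, much of which is set by phosphorylation.

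Promoter sequence is shown for TSC1 and RPTOR, whose mRNA levels ran most strongly against each other, and for DDIT4 and SESN2, the stress-induced genes of the set. Sequences are from RefSeq (GRCh38.p14) and run 5′ to 3′ on the strand of the gene, from 250 bases before to 50 bases after an annotated transcription start. For TSC1, RPTOR and DDIT4 that start lies inside the GENCODE gene span given further on. The windows are chr9:132944567-132944866 (minus strand) for TSC1, chr17:80544588-80544887 (plus strand) for RPTOR, chr10:72273674-72273973 (plus strand) for DDIT4 and chr1:28259268-28259567 (plus strand) for SESN2. Capitals mark matches to the motifs named after the sequences.
TSC1: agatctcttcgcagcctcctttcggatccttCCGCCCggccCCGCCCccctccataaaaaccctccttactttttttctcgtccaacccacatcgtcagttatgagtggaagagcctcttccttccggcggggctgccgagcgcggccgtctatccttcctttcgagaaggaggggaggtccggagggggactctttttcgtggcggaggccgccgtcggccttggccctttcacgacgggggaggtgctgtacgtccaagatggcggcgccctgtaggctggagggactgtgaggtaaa
RPTOR: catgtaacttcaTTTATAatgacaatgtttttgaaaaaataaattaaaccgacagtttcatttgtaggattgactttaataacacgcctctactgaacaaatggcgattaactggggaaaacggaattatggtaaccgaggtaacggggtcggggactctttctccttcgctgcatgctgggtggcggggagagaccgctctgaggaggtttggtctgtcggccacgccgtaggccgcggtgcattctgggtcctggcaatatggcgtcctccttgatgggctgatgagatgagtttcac
DDIT4: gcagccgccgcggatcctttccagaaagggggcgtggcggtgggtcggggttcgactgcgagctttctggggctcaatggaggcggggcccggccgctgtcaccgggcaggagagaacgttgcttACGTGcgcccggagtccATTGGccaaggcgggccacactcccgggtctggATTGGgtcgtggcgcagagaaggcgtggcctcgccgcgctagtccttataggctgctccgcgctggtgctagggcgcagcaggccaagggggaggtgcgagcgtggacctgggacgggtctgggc
SESN2: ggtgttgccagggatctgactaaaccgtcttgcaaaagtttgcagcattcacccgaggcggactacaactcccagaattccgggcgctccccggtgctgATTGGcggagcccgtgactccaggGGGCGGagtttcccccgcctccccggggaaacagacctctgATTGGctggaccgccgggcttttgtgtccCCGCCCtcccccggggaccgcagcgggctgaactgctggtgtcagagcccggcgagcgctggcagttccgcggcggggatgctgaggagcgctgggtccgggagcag
The TSC1 window held the GC-box core GGGCGG at -219 and -209 and no other searched motif, counting bases from the start, with its first base at 0. RPTOR had a TATAAA at -238 as its single match, far upstream of where a TATA box sits. In DDIT4 the core ACGTG, shared by hypoxia and E-box elements, lay at -125 and CCAAT boxes at -108 and -75. SESN2 carried CCAAT boxes at -151 and -86 and GC-box cores at -127 and -57. Both strands were searched, so a motif can appear as its reverse complement.

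Over all 35116 RefSeq promoter windows, 45% held GGGCGG, 34.6% CCAAT, 21.4% ACGTG and 11.5% TATAAA, so each of these short motifs is common. Windows of 9 of the 10 members were searched, and DEPTOR was left out. GGGCGG occurred in the windows of 6 members (MTOR, RHEB, SESN1, SESN2, TSC1, TSC2) and CCAAT in those of 5 (DDIT4, MTOR, RHEB, SESN1, SESN2). ACGTG was present in 3 (DDIT4, RHEB, TSC2). Rarer motifs had few matches. TGATGCAA, a composite element bound by ATF4 (0.866% of windows), matched in TSC2 only. GTAAACA (forkhead, 3.42%), GCGTGGGCG (EGR1, 0.795%), GCGGGGGCG (EGR1, 5.07%) and the serum response factor's CArG box (1.29%) matched in none of the 9 members searched. A match is a description of these letters and not evidence of binding.

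The libraries differed in depth. Reads recovered from the RPKM steps numbered 4002348 in WT DMSO replicate 3 and 12652705 to 26400591 in the others. WT DMSO replicates also correlated least with each other (r of log2 values across genes 0.918, while the rest had 0.961 to 0.977). Lower mRNA of the disrupted genes was visible, though reads remained: PRKAA1 had 18.7 ± 4.58 RPKM (SD, n = 2) in WT DMSO and 7.49 ± 0.173 in AMPK KO DMSO, and PRKAA2 had 10 ± 2.94 and 5.84 ± 0.353. In cordycepin+EGF the lines were closer, with PRKAA1 at 11.2 ± 0.106 in WT and 7.77 ± 1.04 in AMPK KO. PRKAA2 was there at 6.78 and 7.3 in WT and 5.39 and 7.43 in AMPK KO, so the lines overlapped (log2 difference -0.12, adjusted p 0.804 by limma). The EGF treatment was visible at EGR1, an immediate early transcription factor, with 2.51 RPKM in WT DMSO, 219 in WT DMSO+EGF and 52.4 in WT cordycepin+EGF. In AMPK KO these means were 2.27, 107 and 57. Of the markers used to check the cell line, VIM (49.1 to 82.3 RPKM over libraries), KRT8, KRT18 and NEFL were expressed, PAX2 was at most 0.851 and NEFM at most 0.342. PTPRC, GFAP and COL1A1, markers of leukocytes, astrocytes and fibroblasts, were at most 0.061, 0.237 and 1.21.

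All 10 members were expressed in all 12 libraries. RPKM, read density per gene length and library size, is scaled to length and so lets genes be compared. MTOR had the highest mean RPKM over the libraries (23.6), followed by SESN2 (16.7), RHEB (15.7), SESN3 (14.4), DDIT4 (13.1), TSC2 (9.3), TSC1 (8.54), SESN1 (7.56), RPTOR (6.87) and DEPTOR (2.65). The ranges of neighbours in this order overlapped, except at the ends. The lowest MTOR library (21 RPKM) lay above the highest SESN2 library (20), and the highest DEPTOR library (3.67) lay below the lowest RPTOR library (5.15). Spread across libraries set the members apart. The highest value was 1.26 times the lowest for SESN1, 1.29 times for MTOR and 1.33 times for TSC2, whereas the ratio was 1.83 to 2.68 for the remaining 7, with RHEB at the top. DEPTOR rested on the fewest reads, 29 to 190 per library, and MTOR on 1178 to 8086, so DEPTOR values carry the most counting error.

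**Figure D1:**
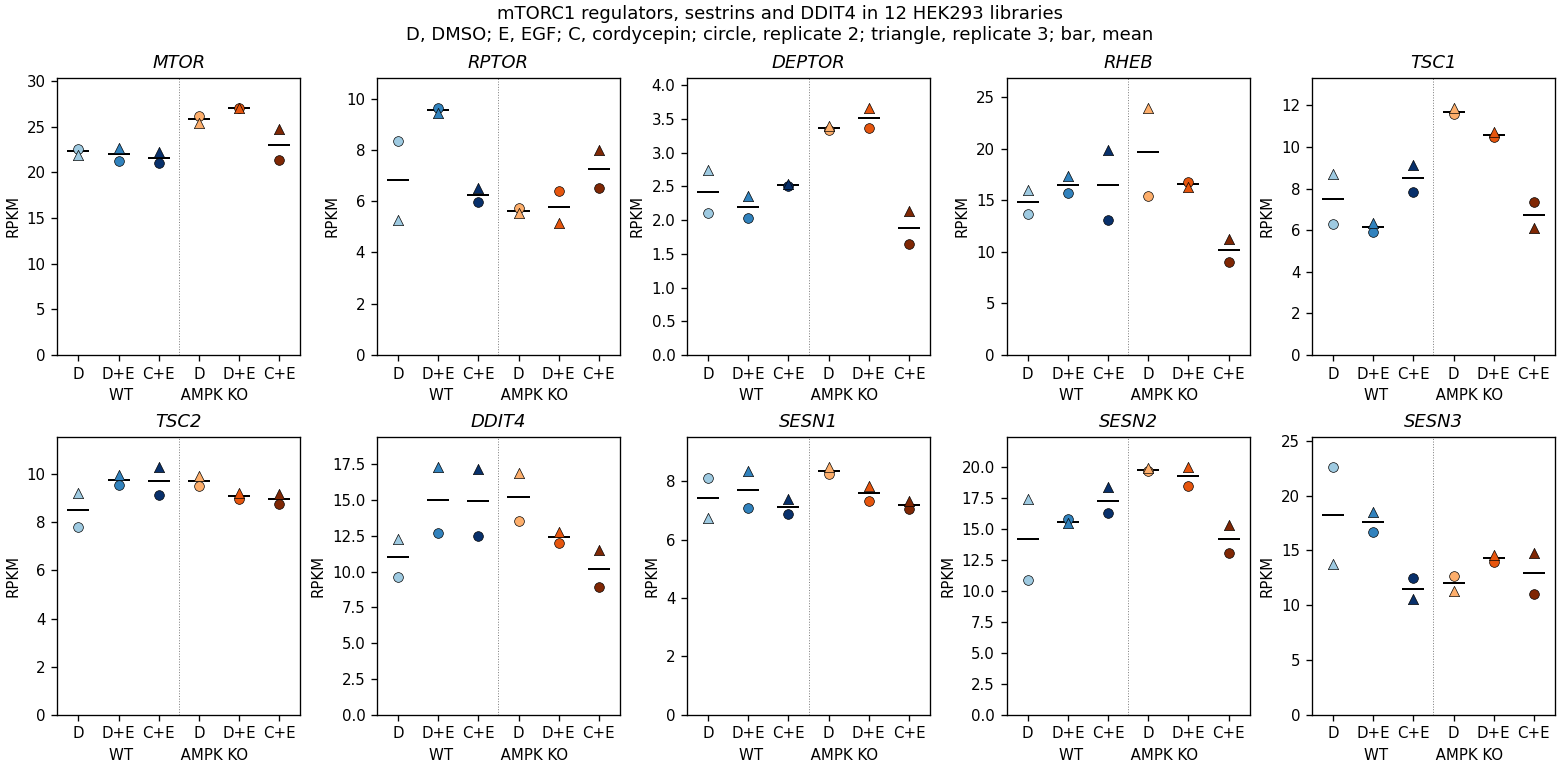
Expression of the 10 members in each library (y axis, RPKM as deposited, starting at 0) by cell line and treatment (x axis), with circles for replicate 2, triangles for replicate 3 and bars for the mean of 2. TSC1 and DEPTOR are high in AMPK KO cells without cordycepin and low with it, whereas SESN1 and TSC2 stay within narrow ranges.

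Tests were made with limma on log2(scaled RPKM + 0.5), with p-values adjusted by the Benjamini-Hochberg method over all 22067 genes tested, and a gene is said to be called when its adjusted p is under 0.05. No member was called in any of the 10 comparisons. Members with an unadjusted p under 0.05 are therefore described by their values and intervals, and their number is read against the share of all genes with such a p. Calls by voom, limma's method for counts, made on the reads recovered from the RPKM values, are given beside them. In bulk RNA, fewer cells that express a gene and less RNA per cell cannot be told apart. Where the libraries of some groups are said to lie apart from others, the share of all genes that do so was not counted.

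The components of mTORC1 itself are described first. MTOR (ENSG00000198793, chromosome 1, 11106535 to 11262556, minus strand, GRCh38), the kinase, had 22.6 and 21.9 RPKM in WT DMSO (replicates 2 and 3), 21.2 and 22.7 in WT DMSO+EGF and 21 and 22.2 in WT cordycepin+EGF. In AMPK KO it had 26.2 and 25.4 in DMSO, 27.1 and 27 in DMSO+EGF and 21.4 and 24.7 in cordycepin+EGF. All 4 AMPK KO libraries without cordycepin lay above all 6 WT libraries, and those with cordycepin overlapped WT. The log2 difference between AMPK KO and WT was 0.31 (SE 0.0989) in DMSO+EGF cells, with an adjusted p of 0.114 by limma. Averaged over the 3 treatments it was 0.20 (SE 0.0571, adjusted p 0.0868), a small difference that was not called.

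RPTOR (ENSG00000141564, chromosome 17, 80544819 to 80966371, plus strand), which recruits substrates to the complex, had 8.33 and 5.28 RPKM in WT DMSO, 9.65 and 9.44 in WT DMSO+EGF and 5.96 and 6.5 in WT cordycepin+EGF. In AMPK KO the values were 5.72 and 5.53, 6.38 and 5.15, and 6.5 and 8.01, in the same order. The WT DMSO+EGF pair stood above every other library. The WT DMSO pair was far apart, so the EGF effect in WT (log2 0.46, SE 0.202, adjusted p 0.511) was 0.15 without WT DMSO replicate 3 and 0.78 without WT DMSO replicate 2. Cordycepin in WT gave -0.54 (SE 0.202, adjusted p 0.281). Between the lines, RPTOR was lower in AMPK KO under DMSO+EGF, by a log2 difference of -0.67 (SE 0.202, adjusted p 0.104).

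DEPTOR (ENSG00000155792), the inhibitory subunit, had 2.1 and 2.74 RPKM in WT DMSO, 2.03 and 2.36 in WT DMSO+EGF and 2.51 and 2.54 in WT cordycepin+EGF. The AMPK KO values were 3.34 and 3.4, 3.36 and 3.67, and with cordycepin 1.64 and 2.13. The 4 AMPK KO libraries without cordycepin were the highest of the 12 and the cordycepin pair of that line included the lowest. The cordycepin effect in AMPK KO was -0.72 (SE 0.173, 95% interval -1.11 to -0.33, adjusted p 0.0795), the smallest adjusted p of any member for a treatment. AMPK KO differed from WT by 0.39 (SE 0.173, adjusted p 0.231) in DMSO and by 0.59 (SE 0.173, adjusted p 0.0984) in DMSO+EGF. The former was 0.24 without WT DMSO replicate 2 and reached 0.549 with another library left out. The pseudocount of 0.5 shrinks log2 differences most for this gene, the lowest of the set.

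RHEB and the complex that restrains it come next. RHEB (ENSG00000106615, chromosome 7, 151466012 to 151520120, minus strand) had 13.7 and 16 RPKM in WT DMSO, 15.7 and 17.4 in WT DMSO+EGF and 13.1 and 19.9 in WT cordycepin+EGF. AMPK KO libraries had 15.4 and 24 in DMSO, 16.8 and 16.3 in DMSO+EGF and 8.99 and 11.3 in cordycepin+EGF. The AMPK KO cordycepin pair lay below all other libraries, and the replicates of WT cordycepin+EGF and of AMPK KO DMSO were the farthest apart. On the log2 scale cordycepin in AMPK KO gave -0.64 (SE 0.229, adjusted p 0.161). With cordycepin, AMPK KO differed from WT by -0.63 (SE 0.229, adjusted p 0.301), which became -0.36 without WT cordycepin+EGF replicate 3 and reached -0.907 with another library left out. RHEB has processed pseudogenes, and reads could be split among them. The pseudogene RHEBP2 carried reads equal to 33.3% to 59% of the RHEB reads per library, and its mean of 30 RPKM in AMPK KO cordycepin+EGF was also its lowest, against 35.5 to 51.1 in the other groups.

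TSC1 (ENSG00000165699, chromosome 9, 132891348 to 132946874, minus strand) encodes hamartin, which stabilises TSC2, and it had the smallest p of the members in both line comparisons without cordycepin and in the line difference of the cordycepin effect. It had 6.29 and 8.72 RPKM in WT DMSO, 5.9 and 6.37 in WT DMSO+EGF and 7.86 and 9.16 in WT cordycepin+EGF. In AMPK KO it had 11.6 and 11.9, 10.5 and 10.7, and with cordycepin 7.34 and 6.13. The 4 AMPK KO libraries without cordycepin stood above every WT library and above the cordycepin pair of their own line. In EGF-treated cells cordycepin thus went with higher TSC1 in WT (log2 fold change 0.48, SE 0.159, adjusted p 0.267) and with lower TSC1 in AMPK KO (-0.58, SE 0.159, adjusted p 0.0998). The difference between these effects was -1.06 (SE 0.225, 95% interval -1.57 to -0.55, adjusted p 0.122). AMPK KO exceeded WT by 0.61 (SE 0.159, adjusted p 0.103) in DMSO and by 0.76 (SE 0.159, adjusted p 0.0512) in DMSO+EGF, and averaged over treatments by 0.36 (SE 0.0918, adjusted p 0.0658). With cordycepin the sign was opposite, at -0.30 (SE 0.159, adjusted p 0.427). The difference in DMSO was 0.39 without WT DMSO replicate 2 and 0.82 (adjusted p 0.0166) without WT DMSO replicate 3, and that with cordycepin was -0.17 without AMPK KO cordycepin+EGF replicate 3.

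TSC2 (ENSG00000103197, chromosome 16, 2047967 to 2089491, plus strand), the GTPase-activating partner and a target of both AKT and AMPK, had 7.8 and 9.21 RPKM in WT DMSO, 9.54 and 9.99 in WT DMSO+EGF and 9.12 and 10.3 in WT cordycepin+EGF. AMPK KO cells had 9.51 and 9.91, 8.98 and 9.21, and 8.75 and 9.19. Its 12 values all lay between 7.8 and 10.3, and the AMPK KO libraries without cordycepin did not stand above WT as they did for its partner TSC1. Averaged over treatments the log2 difference between the lines was -0.0021 with a 95% interval of -0.149 to 0.145.

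The stress-induced inhibitors varied less regularly. DDIT4 (ENSG00000168209, chromosome 10, 72273919 to 72276036, plus strand) had 9.62 and 12.3 RPKM in WT DMSO, 12.7 and 17.3 in WT DMSO+EGF and 12.5 and 17.2 in WT cordycepin+EGF. The knockout libraries had 13.5 and 16.9, 12 and 12.8, and with cordycepin 8.9 and 11.5. Replicate 3 was higher than replicate 2 in all 6 groups. With EGF both libraries lay above the DMSO pair in WT and below it in AMPK KO. With cordycepin, AMPK KO differed from WT by -0.50 (SE 0.211, adjusted p 0.349). This was -0.29 when WT replicate 3 of that treatment was left out and -0.33 when AMPK KO replicate 2 was. It reached -0.704 with another library left out. The EGF effect was 0.40 (SE 0.211, adjusted p 0.546) in WT and -0.27 (SE 0.211, adjusted p 1.0) in AMPK KO. Without 1 library these ran from 0.192 (without WT DMSO+EGF replicate 3) to 0.606 (without WT DMSO+EGF replicate 2), and from -0.413 (without AMPK KO DMSO replicate 2) to -0.128 (without AMPK KO DMSO replicate 3). Cordycepin in WT gave 0.03, with a 95% interval of -0.447 to 0.507.

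SESN1 (ENSG00000080546, chromosome 6, 108984309 to 109094846, minus strand), a leucine-sensing sestrin, had 8.1 and 6.73 RPKM in WT DMSO, 7.07 and 8.35 in WT DMSO+EGF, 6.89 and 7.38 in WT cordycepin+EGF and, in AMPK KO, 8.24 and 8.48, 7.31 and 7.84, and 7.05 and 7.32. It was the steadiest member, and its WT groups overlapped throughout. Averaged over treatments, AMPK KO differed from WT by 0.06 on the log2 scale (95% interval -0.11 to 0.225).

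SESN2 (ENSG00000130766, chromosome 1, 28259518 to 28282491, plus strand), the stress-responsive leucine sensor, had 10.9 and 17.4 RPKM in WT DMSO, 15.8 and 15.5 in WT DMSO+EGF and 16.3 and 18.4 in WT cordycepin+EGF. In AMPK KO it had 19.7 and 19.9, 18.5 and 20, and with cordycepin 13.1 and 15.3. Like TSC1 and DEPTOR, it was highest in the 4 AMPK KO libraries without cordycepin. The gap was small, with 18.5 in AMPK KO DMSO+EGF replicate 2 and 18.4 in WT cordycepin+EGF replicate 3. AMPK KO exceeded WT in DMSO by 0.48 (SE 0.185, adjusted p 0.190), but WT DMSO replicate 2 was low. The difference was 0.16 without that library and 0.80 (adjusted p 0.0140) without WT DMSO replicate 3. Cordycepin in AMPK KO gave -0.38 (SE 0.185, adjusted p 0.266).

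SESN3 (ENSG00000149212, chromosome 11, 95165513 to 95232541, minus strand), a sestrin induced by FOXO factors, had 22.6 and 13.8 RPKM in WT DMSO, 16.7 and 18.5 in WT DMSO+EGF and 12.5 and 10.6 in WT cordycepin+EGF. The AMPK KO values were 12.7 and 11.3, 13.9 and 14.6, and 11 and 14.8. The WT libraries with cordycepin lay below the other WT libraries (log2 fold change -0.55, SE 0.225, adjusted p 0.293, for cordycepin in WT). AMPK KO was lower than WT in DMSO by -0.57 (SE 0.225, adjusted p 0.201). That difference was -0.21 without WT DMSO replicate 2, the highest library, and -0.92 (adjusted p 0.0230) without WT DMSO replicate 3.

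EGF for 30 min was compared with DMSO to ask which members respond to a growth factor. The values of RPTOR in WT were higher with EGF, and those of DDIT4 and TSC2 were higher with EGF in WT and lower with it in AMPK KO. In AMPK KO alone, MTOR and SESN3 were higher with EGF, and TSC1 and SESN1 lower. The groups did not overlap in these cases, and the share of all genes with such a separation was not counted. In WT, 0 of 10 members were called (limma; 0.0227% of all genes were), and RPTOR alone had an unadjusted p under 0.05 (9.72% of all genes did). In AMPK KO, 0 were called (0.0136% of all genes) and 0 had an unadjusted p under 0.05 (2.42% of all genes). With voom on recovered reads 0 were called in either line (0.0275% and 0.0184% of all genes). The log2 fold changes of the members ran from -0.28 (TSC1) to 0.46 (RPTOR) in WT and from -0.27 (DDIT4) to 0.26 (SESN3) in AMPK KO, with medians of 0.08 and -0.05, against 0.02 and 0.01 over all genes. The difference between the lines in the EGF effect called 0 members and 0% of all genes, and 0 members had an unadjusted p under 0.05 (8.69% of all genes did). Voom likewise called 0% of all genes there.

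Cordycepin was compared with DMSO in EGF-treated cells to ask how the set responds to the adenosine analogue with and without AMPK. Members with an unadjusted p under 0.05 by limma were TSC1 (higher), RPTOR and SESN3 (lower) in WT, and TSC1, DEPTOR and RHEB (all lower) in AMPK KO. Other members also had groups that did not overlap. DEPTOR and SESN2 were higher with cordycepin in WT. In AMPK KO, SESN2, MTOR and DDIT4 were lower with it and RPTOR higher. None of these was called: the counts were 0 of 10 in WT (0.00453% of all genes) and 0 of 10 in AMPK KO (0.471%). At an unadjusted p under 0.05 there were 3 members in WT (1 higher, 2 lower), against 16% of all genes, and 3 in AMPK KO (all lower), against 21.8%. The median log2 fold change of the members was 0.03 in WT and -0.21 in AMPK KO, where 8 of 10 were negative, against 0.03 and 0.06 over all genes. The EGF and cordycepin comparisons of a line share its DMSO+EGF libraries. RPTOR, for one, had 0.46 for EGF and -0.54 for cordycepin in WT, and TSC1 had -0.28 and 0.48. The TSC1 value for EGF was -0.07 without WT DMSO replicate 3 and -0.50 without WT DMSO replicate 2. Voom on recovered reads called TSC1 (-0.68, adjusted p 0.0273) and DEPTOR (-0.90, adjusted p 0.0391) in AMPK KO, where it called 6.38% of all genes, and no member in WT, where it called 4.28%.

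**Figure D2:**
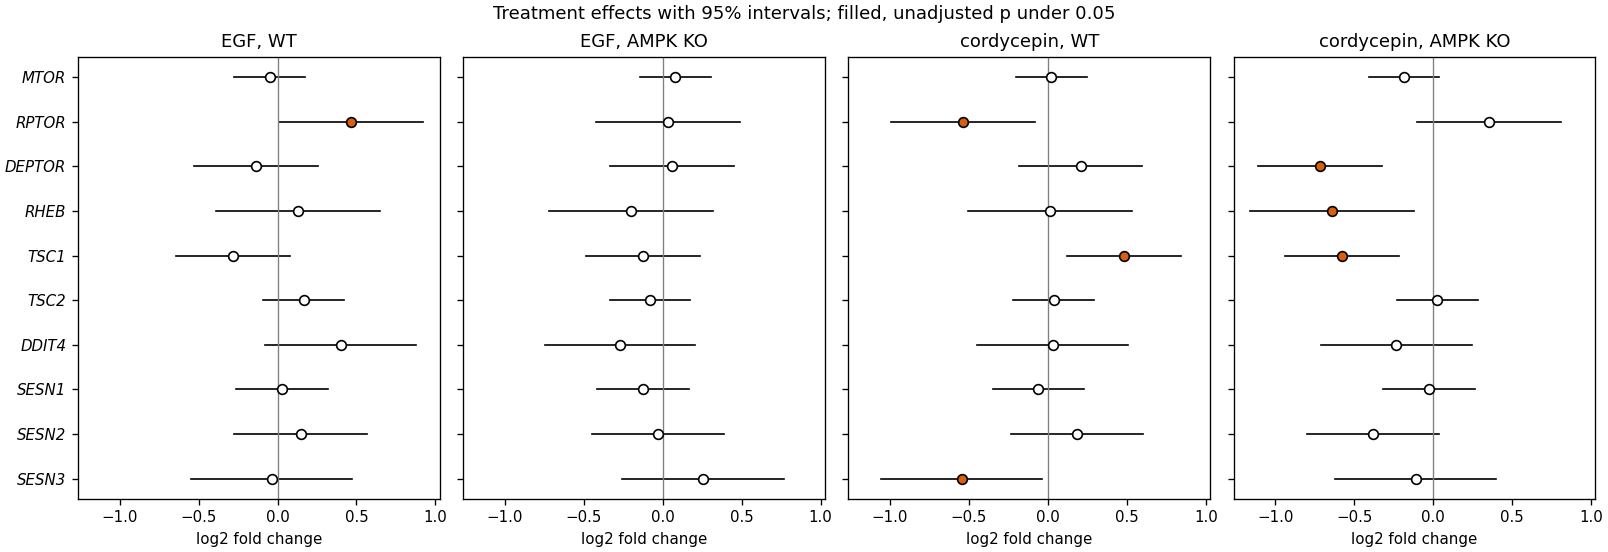
Log2 fold change (x axis) of each member (y axis) for EGF against DMSO and for cordycepin against DMSO in EGF-treated cells, in WT and AMPK KO, with 95% intervals from limma and filled points where the unadjusted p is under 0.05. For cordycepin, TSC1 lies at 0.48 in WT and -0.58 in AMPK KO, and DEPTOR at -0.72 in AMPK KO. No point passed adjustment over all genes.

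The difference between the lines in the cordycepin effect was tested directly. This test uses the same DMSO+EGF libraries as the comparison of AMPK KO with WT in DMSO+EGF. Calls of a gene in both are therefore not separate findings. TSC1 had -1.06, DEPTOR -0.93 (SE 0.245, adjusted p 0.124) and RPTOR 0.89 (SE 0.286, adjusted p 0.147). Thus TSC1 and DEPTOR were lower with cordycepin in AMPK KO relative to WT, and RPTOR was higher. With limma 0 members and 0% of all genes were called, and 3 members had an unadjusted p under 0.05 (21.4% of all genes did), so the count for the members was near that of the whole table. On recovered reads voom called these 3 genes and 9.31% of all genes, with differences of -1.15 (adjusted p 0.0107) for TSC1, -1.12 (adjusted p 0.0398) for DEPTOR and 0.94 (adjusted p 0.0291) for RPTOR.

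AMPK KO was compared with WT to ask how loss of the AMPK catalytic subunits goes with the levels of these genes. Without cordycepin TSC1, DEPTOR, SESN2 and MTOR were at higher values in AMPK KO. In DMSO 0 of 10 members were called (0.44% of all genes), and 4 had an unadjusted p under 0.05 (TSC1, SESN2 and DEPTOR higher, SESN3 lower), against 21.3% of all genes. In DMSO+EGF 0 were called (1.74% of all genes) and 4 had such a p (TSC1, DEPTOR and MTOR higher, RPTOR lower), against 22.5%. In cordycepin+EGF 0 were called (0.118%) and 2 had such a p (RHEB and DDIT4 lower), against 13.7%. Averaged over treatments 0 were called (4.34%) and 2 had such a p (MTOR and TSC1 higher), against 20.4%. The median difference of the members was 0.27 in DMSO, 0.01 in DMSO+EGF and -0.18 in cordycepin+EGF, against 0.01, -0.0047 and 0.01 over all genes. Voom on recovered reads called TSC1 in DMSO (0.70, adjusted p 0.0233; 8.12% of all genes were called) and on average (0.40, adjusted p 0.0111; 10.7%). It called TSC1, DEPTOR and RPTOR in DMSO+EGF (11.4% of all genes) and no member in cordycepin+EGF (1.67%). Without WT DMSO replicate 3, limma called TSC1, SESN2 and SESN3 in DMSO, and 13.9% of all genes.

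**Figure D3:**
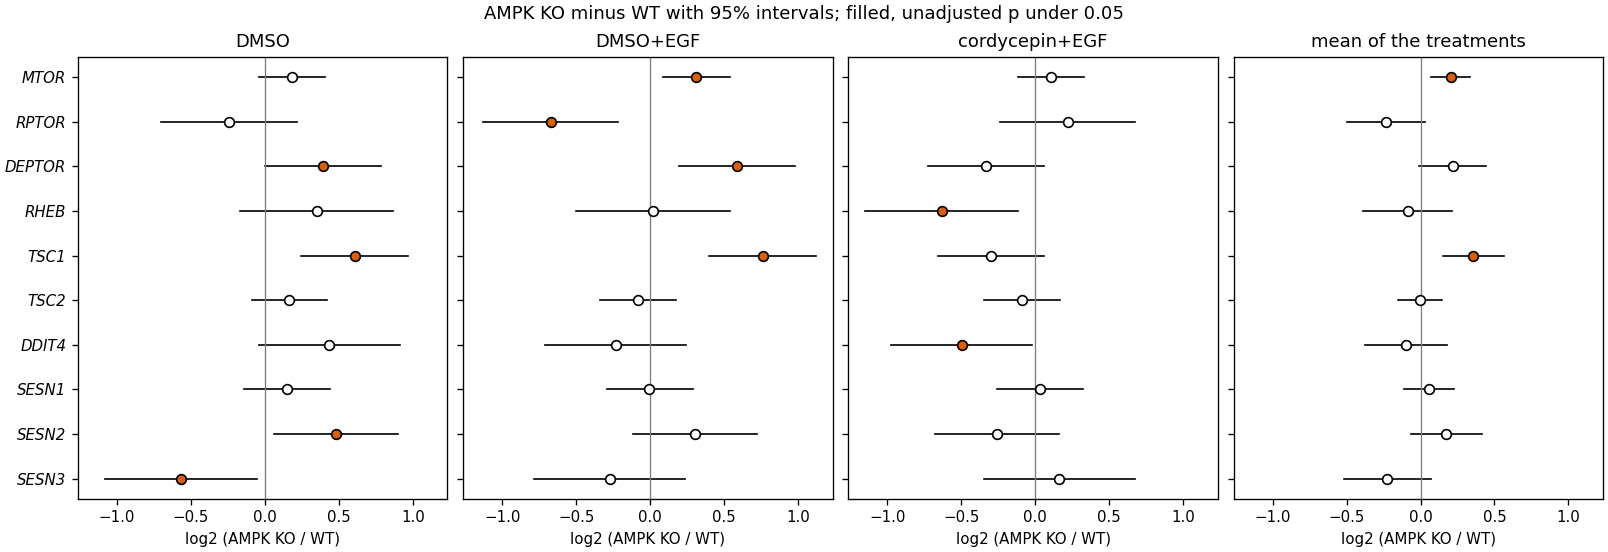
Log2 difference AMPK KO minus WT (x axis) of each member (y axis) in DMSO, DMSO+EGF and cordycepin+EGF and averaged over these, with 95% intervals from limma and filled points where the unadjusted p is under 0.05. TSC1 lies at 0.61, 0.76 and -0.30 in the 3 treatments. No point passed adjustment over all genes.

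Base composition of the libraries moved with some of these values. It was measured on 11677 protein-coding genes whose mean RPKM was 1 or more: the median log2 level of the most GC-rich genes (56.1% GC and above) relative to that of the most GC-poor ones (up to 41.4%), each gene centred on its own mean, was -0.45 and -0.14 in the WT DMSO libraries and -0.17 and -0.11 in those of AMPK KO DMSO+EGF, and reached 0.28 in replicate 3 of WT cordycepin+EGF. Over the 12 libraries this measure correlated with the log2 level of TSC2 (r = 0.862; transcript GC 62%) and SESN3 (r = -0.736; 37.1%), less with DDIT4 (0.51; 59.7%) and SESN2 (0.415; 59.6%), and little with TSC1 (0.0946; 48.4%), RPTOR (-0.0677; 60%) and DEPTOR (-0.117; 45.7%). These are descriptions over libraries that share groups. The measure was then added as a covariate, in a fit chosen after seeing the data. Group means are in that fit, so its slope on the measure rests on differences between replicates within groups. The widest pair was that of WT DMSO, which includes the library of 4002348 reads, so the adjusted values lean most on that pair. The part of base composition itself was not tested. In this fit the differences between the lines in DMSO were -0.02 for SESN2, 0.19 for SESN3 and 0.20 (adjusted p 0.795) for TSC1. The cordycepin effects in WT were 0.29 for TSC1, -0.28 for RPTOR and -0.19 for SESN3, and EGF in WT gave 1.00 (adjusted p 0.106) for RPTOR. DEPTOR differed by 0.24 between the lines in DMSO. SESN3 was at -0.18 for EGF in AMPK KO, opposite in sign to the fit without the covariate, and SESN2 at -0.70 (adjusted p 0.0536) for cordycepin in AMPK KO. The line difference in the cordycepin effect was in the same fit -1.12 (adjusted p 0.0221) for TSC1, -0.95 (adjusted p 0.0445) for DEPTOR and 0.98 (adjusted p 0.0317) for RPTOR, with 10.3% of all genes called. TSC1 in DMSO+EGF was 0.98 (adjusted p 0.0136) higher in AMPK KO than in WT, and RPTOR was at -0.97 (adjusted p 0.0186), with 14.9% of all genes called. SESN3 was also called there, at -0.68 (adjusted p 0.0247), against -0.27 in the fit without the covariate.

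Within the set, levels of some members followed each other across the 12 libraries. TSC1 and RPTOR ran in opposite directions, with a Pearson r of -0.891 between their log2 levels, and DEPTOR and TSC1 in the same direction (0.857). DDIT4 and RHEB (0.814), DEPTOR and SESN2 (0.813) and DDIT4 and TSC2 (0.802) were the next pairs. TSC1 and TSC2, whose proteins act as a complex, had an r of 0.237. SESN1, SESN2 and SESN3 shared no pattern, with r of -0.0261, 0.205 and -0.648 between pairs. These correlations describe 12 libraries that share groups, depth and base composition. The genes most like DDIT4 among 11676 protein-coding genes were DCXR (r = 0.969), LSS (0.962) and PIM3 (0.953), and those most like SESN2 were TCF3 (0.965), PIAS4 (0.955) and ADRM1 (0.955).

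**Figure D4:**
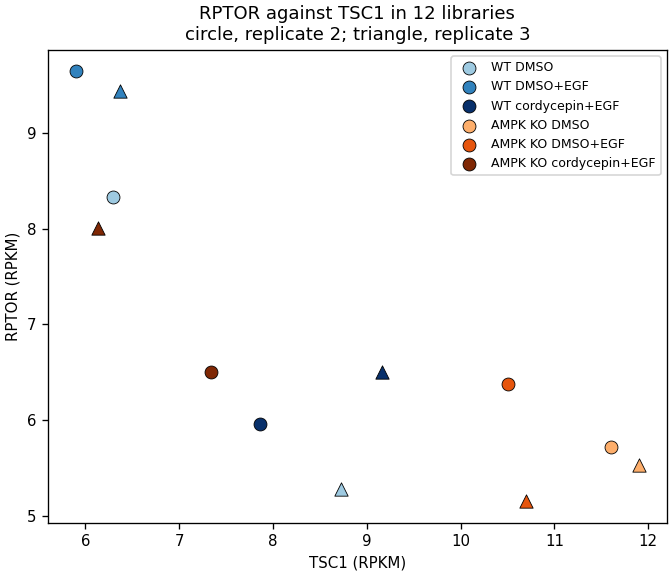
RPTOR (y axis, RPKM) against TSC1 (x axis, RPKM) in the 12 libraries, coloured by group, with circles for replicate 2 and triangles for replicate 3; the axes do not start at 0. Libraries with TSC1 above 10 are the 4 AMPK KO libraries without cordycepin, and both WT DMSO+EGF libraries lie at the upper left, with RPTOR at 9.65 and 9.44.

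The wider pathway was read from 7 lists of 69 genes in all, of which 67 were listed and 64 tested. AMPK KO against WT, averaged over treatments, was the comparison with most calls: 4 of 64 genes were called, all higher in AMPK KO (4.34% of all genes were called). NPRL2, a subunit of the GATOR1 complex that inhibits the Rag GTPases, was higher by 0.49 (SE 0.0983, adjusted p 0.0283). SEH1L (0.50, SE 0.106, adjusted p 0.0362) and SEC13 (0.29, SE 0.0648, adjusted p 0.0402) belong to GATOR2, the complex that opposes GATOR1, and both also sit in the nuclear pore. The fourth was IRS2, an adaptor of the insulin receptor (0.44, SE 0.0944, adjusted p 0.0376). These averages hide differences between treatments. Mean SEH1L in AMPK KO and WT was 23.2 and 15.6 RPKM in DMSO, 23.3 and 12.8 in DMSO+EGF, and 13.6 and 13.2 in cordycepin+EGF. In cordycepin+EGF the libraries of the lines overlapped for SEH1L and NPRL2 and did not for SEC13 and IRS2. For EGF, for cordycepin and for the difference between the lines in either effect, 0 of 64 were called in the limma fit.

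Counted by an unadjusted p under 0.05, 14 of these 64 (21.9%) passed for EGF in WT (11 higher, 3 lower), against 9.72% of all genes, and 1 (1.56%) for EGF in AMPK KO, against 2.42%. Cordycepin gave 14 (21.9%) in WT (4 higher, 10 lower), against 16% of all genes, and 17 (26.6%) in AMPK KO (3 higher, 14 lower), against 21.8%. Their median log2 fold changes were -0.03 and -0.10. For AMPK KO against WT 24 (37.5%) passed in DMSO, 18 (28.1%) in DMSO+EGF, 11 (17.2%) in cordycepin+EGF and 23 (35.9%) on average, against 21.3%, 22.5%, 13.7% and 20.4% of all genes. The line difference gave 9 (14.1%) for EGF and 20 (31.2%) for cordycepin, against 8.69% and 21.4%. The comparisons share libraries, and nothing particular to the lists was tested. Genes with the smallest p of their lists for cordycepin in AMPK KO included RRAGB, a Rag GTPase (-0.80, SE 0.184, adjusted p 0.0733), SEH1L (-0.71, SE 0.184, adjusted p 0.0891), RICTOR, the scaffold of mTORC2 (-0.37, SE 0.143, adjusted p 0.185), and TFE3, a lysosomal transcription factor that mTORC1 keeps in the cytoplasm (-0.68, SE 0.194, adjusted p 0.108). None of these passed adjustment. In WT the corresponding genes included LAMTOR5 of the Ragulator (-0.76, adjusted p 0.282), ITFG2 of KICSTOR (0.55, adjusted p 0.262), AKT1S1 (0.54, adjusted p 0.336) and EIF4EBP2, a translation repressor that mTORC1 inactivates (-0.58, adjusted p 0.274).

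Among transcription factors known to act on DDIT4 or the sestrin genes, 8 were tested and 0 were called. HIF1A, the hypoxia factor that acts on DDIT4, was at -0.82 (SE 0.172, adjusted p 0.0657) in AMPK KO relative to WT in DMSO. The TSC and RHEB relatives TBC1D7 and RHEBL1 had no unadjusted p under 0.05 in any comparison.

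**Figure D5:**
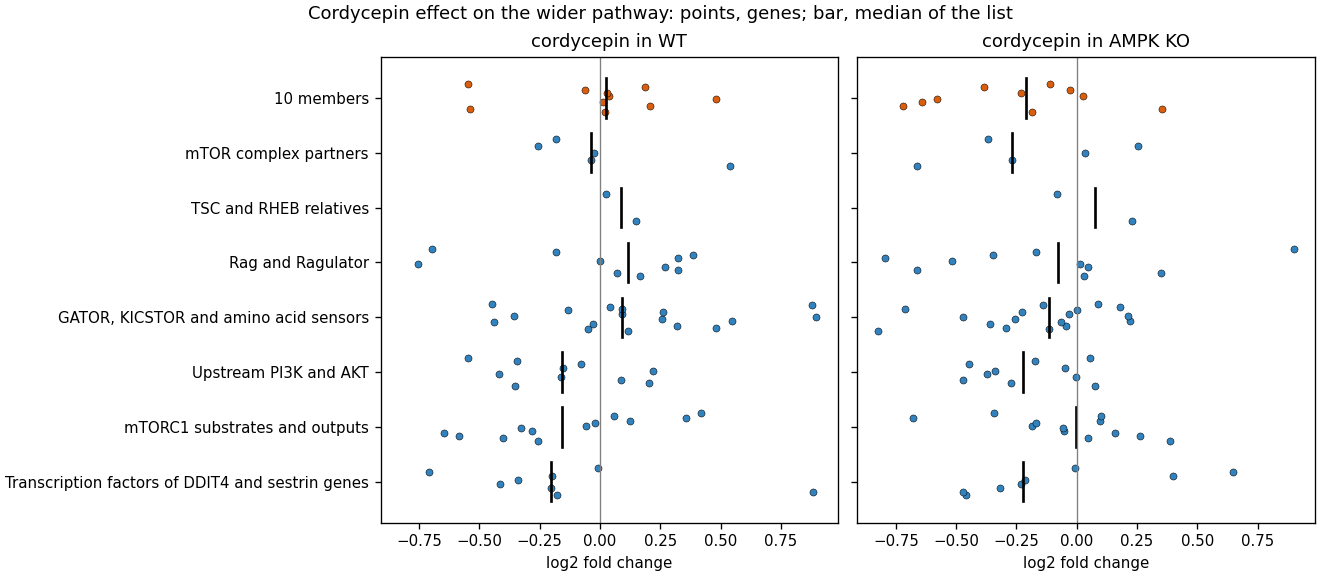
Log2 fold change for cordycepin in EGF-treated cells (x axis) of the 10 members and of the genes tested in the 7 pathway lists (y axis), 1 point per gene, with the list median as a bar, in WT (left) and AMPK KO (right). The median of the members is 0.03 in WT and -0.21 in AMPK KO.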

How the data were processed

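Per the labels and the study's methods, libraries were stranded, depleted of ribosomal RNA and sequenced as paired reads of 150 bases. The authors mapped reads to GRCh38.p13, obtained read counts with Rsubread and deposited values as RPKM. Replicate 1 was discarded by the authors as an outlier. FastQC is named in the submitters' processing notes. The table had 26058 genes and 2 rows naming no gene, which were left out. Gene IDs were matched to GENCODE release 44 (26029 matched). Nothing beyond the replicate labels says how separate the cultures were, so p-values measure the spread between these libraries, which may be technical.

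RPKM values were divided by the upper quartile of each library relative to the mean upper quartile of the 12 libraries, which keeps them on the RPKM scale. They were taken as log2(value + 0.5), so fold changes of low genes are understated. Testing was two-sided over 22067 genes whose mean RPKM reached 0.5, with limma 3.58.1 in R 4.3.3 (group means of all 12 libraries, eBayes with trend, Benjamini-Hochberg adjustment within each of 10 comparisons, residual degrees of freedom 6, moderated 8.96). Standard errors (SE) are moderated, and intervals are at 95%. The script was tested on simulated data. The study's threshold on unadjusted p-values is not used to call genes here.

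At annotated lengths 25082 genes (96.25%) came out as whole read numbers in every library (tolerance 0.05 reads), and 25711 (98.67%) after a search for the length, the 10 members included. Voom was run on these reads (21793 genes). Recovered depth was 4002348 to 26400591 reads. Reads carry no molecular identifiers.

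All 10 members are named. A test is printed where the unadjusted p was under 0.05 or a statement needed it. Of each pathway list, genes called (up to 4 by smallest p) or else the gene with the smallest p were eligible to be named; some of these, and 1 searched motif, are not reported here. PRKAA1, PRKAA2 and EGR1 served as checks, and 3 genes were named as most like DDIT4 and SESN2. The members and lists were chosen with earlier results of these data known. Alternatives were 2 pseudocounts, 2 filters, 2 scalings, voom, array weights, eBayes without trend, fewer groups, replicate blocks and leaving out each library. A GC covariate was added after seeing the data. Differences between replicates 3 and 2 were correlated across genes for some pairs of groups. Their r was 0.136, 0.282 and 0.314 for pairs within WT, and -0.0677, 0.0307 and -0.122 within AMPK KO. Between the lines it ran from -0.0809 to 0.322, the latter for WT cordycepin+EGF with AMPK KO DMSO. Where the replicate numbers come from in the laboratory was not stated in the sources used here.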

Additional observations from a re-analysis of the deposited data

Results flagged for a closer look

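For 6 results the treated libraries of one line all lay above the libraries they were compared with and those of the other line all lay below theirs, while limma's test of the difference between the lines did not pass adjustment. How many of all genes separated in this way was not counted, so the 6 results are not read as particular to the members. For EGF the results were DDIT4 (difference of log2 fold changes, AMPK KO minus WT, -0.67, adjusted p 0.578) and TSC2 (-0.25, adjusted p 0.666). For cordycepin they were TSC1 (-1.06, adjusted p 0.122), DEPTOR (-0.93, adjusted p 0.124), RPTOR (0.89, adjusted p 0.147) and SESN2 (-0.57, adjusted p 0.250). Of these, TSC1, DEPTOR and RPTOR were called by voom on recovered reads, which called 9.31% of all genes there. The fit with the GC covariate, chosen after seeing the data, also called them, and 10.3% of all genes. The levels of TSC2 and DDIT4 correlated with the base composition measure at r of 0.862 and 0.51. That measure was -0.454 and -0.142 in WT DMSO and 0.102 and 0.008 in WT DMSO+EGF, and its part in these results was not tested. In limma with the GC covariate, the EGF differences were 0.06 (adjusted p 0.919) for TSC2 and -0.18 (adjusted p 0.882) for DDIT4, so that of TSC2 changed sign. Without WT DMSO replicate 2, in limma without the covariate, the TSC2 value was -0.14, and it reached -0.354 with another library left out.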

How the results depend on the processing

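Members called moved from 0 as follows. Voom gave 2 for cordycepin in AMPK KO, 1 for AMPK KO against WT in DMSO, 3 in DMSO+EGF, 1 averaged over treatments and 3 for the line difference in the cordycepin effect. Array weights gave 2, 0, 4, 1 and 2 in that order, and the GC covariate 1, 0, 3, 1 and 3. Over all genes, in that order, voom called 1390, 1769, 2481, 2325 and 2028 of 21793. Array weights called 1193, 7, 5041, 917 and 1457 of 22067, and the GC covariate 1489, 4, 3287, 1516 and 2273. A fit of only the groups compared gave 2 in DMSO+EGF (2215 of all 22067 genes) and 1 for the line difference in the cordycepin effect (1128). A filter at a mean RPKM of 1 gave 1 in DMSO+EGF (433 of 18784 genes). Leaving out 1 library gave 0 to 3 members for AMPK KO against WT in DMSO and 0 to 3 averaged, with 3 in both cases without WT DMSO replicate 3 and 0 without any other library. TSC1 was among the members in each of these cases. The cause was not tested. Over 22 member differences, 400 alternative values included 364 on the same side of the threshold, 34 that passed it and 2 of opposite sign, both with the GC covariate in DMSO: SESN2 at -0.0234 and SESN3 at 0.194. With a replicate block, or a block within each cell line, 0 members were called in every comparison. Counts over all genes moved far more: cordycepin in WT called 1 gene, 0 to 932 under the alternatives, cordycepin in AMPK KO 104 (0 to 1489), AMPK KO against WT in DMSO 97 (1 to 1769), in DMSO+EGF 383 (130 to 5041), in cordycepin+EGF 26 (2 to 363), averaged 957 (91 to 2325) and the line difference in the cordycepin effect 0 (0 to 2273). EGF called 5 in WT (1 to 6) and 3 in AMPK KO (1 to 4). Leaving out 1 library gave 0 to 39, 5 to 3065, 6 to 10, 4 to 14 and 305 to 2890 for cordycepin in AMPK KO and the 4 line comparisons in that order, and 3 to 702 for EGF in WT, where 702 came without WT DMSO replicate 2. A group left with 1 library was assumed to vary like the other groups. WT DMSO replicate 3, with 29 DEPTOR reads and 105 DDIT4 reads, limits what comparisons with WT DMSO can show.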
